A study of Mus musculus with 200 samples.

Results

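The genes described here are 9 genes of the integrated stress response, Atf4, Atf5, Atf3, Ddit3, Trib3, Chac1, Asns, Sesn2 and Ppp1r15a, in the brains of mice killed after closed head injury (CHI) or sham surgery. They were chosen by their gene symbols, and they are 9 of the 56941 genes listed for each mouse. The integrated stress response is the program that a cell starts when a sensor kinase phosphorylates the translation factor eIF2. General protein synthesis then falls, while the mRNA of the transcription factor ATF4 is translated more, so ATF4 protein can rise without any rise of its mRNA. ATF4 and its partners switch on genes for amino acid supply, redox control and, under long stress, cell death, and Ppp1r15a closes the loop by bringing a phosphatase to eIF2. In neurons, Atf3 is also known as a gene switched on by axon injury.

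Brain RNA of 200 mice was sequenced. The study's methods, which describe the C57BL/6J mice, give one hemisphere per mouse after perfusion with PBS, poly(A) selection and surgeries in the morning, so the 9 h brains were taken at another time of day than the 24 and 72 h brains. CHI was a single impact on the closed skull, and sham mice had anaesthesia and a scalp incision only. There were 61 mice of the strain C57BL/6J, 55 labelled IL-1R1 gKO, 50 labelled IL-1R1 eRestore and 34 labelled IL-1R1 nRestore. IL-1R1 is a receptor of the cytokine interleukin-1. The labels do not spell out gKO, eRestore or nRestore, nor name a Cre driver, so the strains are called by their labels here. The groups held 15, 14 and 14 CHI mice and 6, 6 and 6 sham mice of C57BL/6J at 9, 24 and 72 h. IL-1R1 gKO had 13, 12 and 12 CHI mice and 6, 6 and 6 sham mice. IL-1R1 eRestore had 12, 9 and 12 CHI mice and 6, 5 and 6 sham mice. IL-1R1 nRestore had 6, 8 and 6 CHI mice and 4, 5 and 5 sham mice. Both sexes were present in every group except the 72 h groups of IL-1R1 nRestore, which were all male. Mean ages of the groups ran from 3.72 to 6.17 months, and at 24 h the CHI mice of the IL-1R1 strains were older than their sham mice, by the most in IL-1R1 eRestore (6.03 against 4.91 months). The labels also name experiments, and none held both 9 h mice and mice of a later time point. Differences between 9 h and later time points thus cannot be told apart from the experiment. At 24 h one experiment held only CHI mice of the IL-1R1 strains (5 gKO, 4 eRestore and 4 nRestore), so there surgery was partly tied to experiment.

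Total estimated counts per mouse ran from 14857985 to 57355676. Neuron markers were abundant in every mouse (summed level of 7 genes, 3856 to 8110 TPM, transcript abundance scaled for length and depth). Choroid plexus markers varied widely between mice (summed level of 4 genes, 5.02 to 6196 TPM). Il1r1 had a median of 3.94 TPM in IL-1R1 gKO and 2.00 TPM in C57BL/6J, so its total count does not mark the strain. In a bulk sample, fewer cells of a type and less RNA per cell cannot be told apart.

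Promoter windows of the 9 genes were searched for the composite site that ATF4 binds with a C/EBP partner. A site outside these short windows would be missed. The RefSeq promoter table (250 bases before to 50 after each start) held 10 windows for the 9 genes, with 2 for Atf5. The site was searched as TGATGNAAN on both strands, which is the usual form of the C/EBP-ATF response element. It was found in the windows of 4 genes, Atf3, Chac1, Trib3 and Asns, and in 3.95% of all 32851 windows. The cyclic AMP response element TGACGTCA was in 1 of the 9 genes, Ppp1r15a (1.79% of all windows), and the AP-1 site TGACTCA in 1, Ddit3 (5.2% of all windows). TGACGTCA and TGACTCA share their first letters but no match was counted under both. Stretches of the gene's own strand around 5 of these matches follow, with the matched letters in capitals, since the genes with and without a match are compared below.
Atf3, chr1:190915617-190915657, minus strand, GRCm39: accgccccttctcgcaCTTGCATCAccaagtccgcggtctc
Chac1, chr2:119181513-119181553, plus strand, GRCm39: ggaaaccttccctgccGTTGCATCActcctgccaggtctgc
Asns, chr6:7693210-7693248, minus strand, GRCm39: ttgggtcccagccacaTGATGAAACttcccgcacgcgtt
Ppp1r15a, chr7:45175693-45175720, minus strand, GRCm39: gaccccgcctctccggTGACGTCAgcac
Ddit3, chr10:127126412-127126442, plus strand, GRCm39: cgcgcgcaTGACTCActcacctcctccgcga
The matches in Atf3 and Chac1 lie on the opposite strand. Those in Asns and Ppp1r15a begin 23 and 12 bases before the start. A match in these letters is a description of the window and does not show binding.

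The 9 genes differed widely in level. Per transcript length, the most abundant over all 200 mice were Asns (median 90.2 TPM) and Atf4 (87.9 TPM), followed by Ddit3 (56.3 TPM) and Atf5 (15.8 TPM). Ppp1r15a (9.97 TPM), Sesn2 (6.08 TPM) and Chac1 (5.63 TPM) were lower. Atf3 (0.975 TPM) and Trib3 (0.342 TPM) were close to the limit of what the depth resolves, with 2 to 88 and 0 to 29 estimated counts per mouse. Several genes overlap others. Ddit3 overlaps Mars1 and Mbd6 on the other strand, and Atf5 overlaps Nup62 and Il4i1 on the other strand. The strandedness of the libraries is not given in the sources used here, so reads of such pairs may not be told apart. Ddit3 has a second row in the table, which was at 0 in all 200 mice.

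CHI was first compared with sham mice within each strain and time point, with edgeR's quasi-likelihood test, which was adjusted over all genes tested and had sex and age as covariates. Trib3 passed the filter on low counts in 5 of 12 comparisons and the other 8 genes in all 12. Of these values edgeR called 0 at an adjusted p under 0.05, while 16 had an unadjusted p under 0.05. DESeq2 called 3 with its own size factors and 2 with gene-length offsets, all Atf3 or Atf4 values named below. The share of all genes called was 14.1% in C57BL/6J at 9 h, 0.404% at 24 h and 0% at 72 h. It was 0.199%, 0.00590% and 0% in IL-1R1 gKO, 7.34%, 0% and 0.00605% in IL-1R1 eRestore, and 0.608%, 0% and 0.0121% in IL-1R1 nRestore. In every strain and at every time point the CHI and sham values of each of the 9 genes overlapped. The share of all genes with such an overlap was not counted, so this does not set the 9 genes apart.

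The 4 strains were next fitted jointly, and the covariates were strain, sex and age. At 9 h (46 CHI and 22 sham mice), 23.9% of all genes were called and 2 of the 9 members, Atf4, which was lower after CHI, and Sesn2, which was higher. At 24 h (43 and 22 mice), 1.48% of genes were called and 1 member, Atf4, again lower. At 72 h (44 and 23 mice), 0.706% of genes were called, of which nearly all were higher after CHI (5 were lower), and 1 member, Atf3, which was 2.14 times as high as in sham mice. At 9 h the members' share lay near the background, at 2 of 9.

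**Figure D1:**
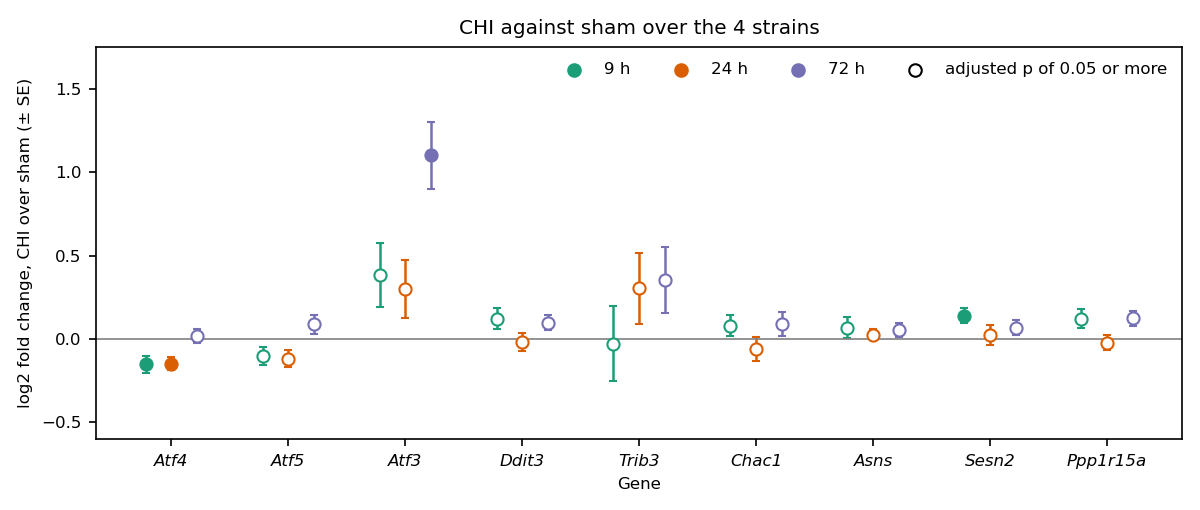
Log2 fold change of CHI over sham in the 4 strains together for each of the 9 genes, with its standard error, at 9, 24 and 72 h. Filled points have an adjusted p under 0.05 and open points do not. Atf3 at 72 h stands at 1.10, and all other points except those of Atf3 and Trib3 lie between -0.15 and 0.14.

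Atf3, a transcription factor of the ATF/CREB family that other members of the response switch on, was the member with the largest change. At 72 h its normalized counts in C57BL/6J were 12.9 to 63.6 (median 32.8) in the CHI mice and 6.6, 7.5, 8.3, 11.4, 12.3 and 32.5 in the sham mice. All CHI mice lay above 5 of the 6 sham mice, and 7 of 14 lay above the sixth too. In IL-1R1 gKO the CHI mice ranged from 8.2 to 52.6 (median 25.5) and the sham mice were at 8.1, 8.9, 9.9, 10.6, 13.6 and 20.4. There 9 of 12 CHI mice were above every sham mouse.

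In IL-1R1 nRestore the CHI mice were at 14.8, 22.9, 25.5, 32.6, 39.1 and 41.0 and the sham mice at 2.7, 5.3, 7.7, 9.0 and 18.3. Only the lowest of the 6 CHI mice fell within the range of the sham mice. In IL-1R1 eRestore the CHI mice ranged from 9.1 to 30.2 (median 18.7) and the sham mice were at 3.4, 7.4, 9.9, 16.5, 17.9 and 51.3. No CHI mouse there was above the highest sham mouse, which stood far above the other 5.

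**Figure D2:**
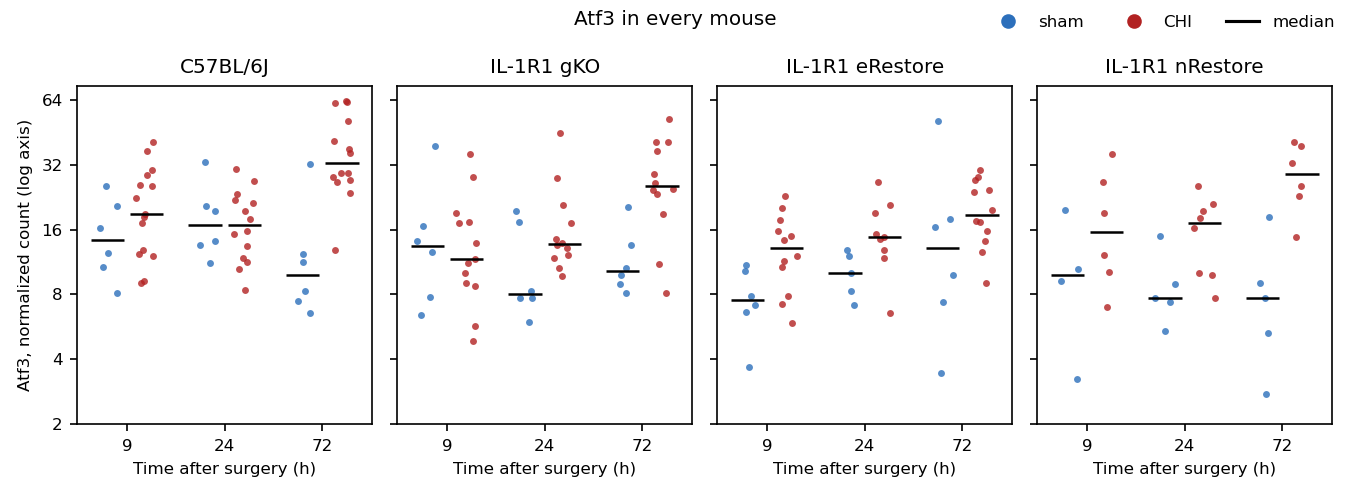
Normalized count of Atf3 in every mouse (log axis) by strain and time after surgery, sham in blue and CHI in red, with the median of each group as a bar. At 72 h the CHI medians were 32.8 in C57BL/6J, 25.5 in IL-1R1 gKO, 18.7 in IL-1R1 eRestore and 29.1 in IL-1R1 nRestore, and one sham mouse of IL-1R1 eRestore lay at 51.3.

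Over the 4 strains the log2 fold change of Atf3 at 72 h was 1.10 (SE 0.20, adjusted p = 0.00027). Without the sham mouse at 51.3 it was 1.34. This mouse was left out after its value was seen, and leaving out the highest sham value raises such a fold change. Leaving out one strain at a time gave 0.95 to 1.49, and the call was lost only without C57BL/6J (0.95, adjusted p = 0.073). Within single strains the values were 1.55 in C57BL/6J (SE 0.28, 2.92-fold, adjusted p = 0.068), 1.14 in IL-1R1 gKO (SE 0.36, adjusted p = 1.0), 0.15 in IL-1R1 eRestore (SE 0.40, adjusted p = 0.99) and 1.79 in IL-1R1 nRestore (SE 0.41, adjusted p = 0.60). The C57BL/6J value passed the threshold with DESeq2 (adjusted p = 0.00022, and 0.0043 with gene-length offsets), and the IL-1R1 nRestore value passed it with DESeq2's size factors (adjusted p = 0.040).

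Mice came from several experiments, as the labels name them, and at 72 h the direction was the same in most of them. In the experiment that held most C57BL/6J mice the value was 1.83. IL-1R1 nRestore gave 1.93 and 1.66 in its 2 experiments, IL-1R1 gKO gave 0.98 in the one that could be fitted alone, and IL-1R1 eRestore gave -0.06 and 0.89. With the strain by experiment as a covariate, the value over the 4 strains was 1.13 (adjusted p = 0.00028).

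At the earlier time points Atf3 gave smaller values. Over the 4 strains it was 0.38 at 9 h (SE 0.19, adjusted p = 0.15) and 0.30 at 24 h (SE 0.17, adjusted p = 0.45). Without IL-1R1 gKO, whose own value at 9 h was -0.19, the 9 h value passed the test (0.56, adjusted p = 0.035). At 9 h the estimate rested on how transcript length was handled. The length that counts per TPM imply for Atf3 was higher in the CHI than the sham mice by 0.40 (log2) in C57BL/6J and 0.70 in IL-1R1 nRestore, against an SD of 0.65 over mice. With gene-length offsets the C57BL/6J value at 9 h went from 0.41 to -0.02 and the IL-1R1 nRestore value from 0.64 to -0.11. The change from 9 to 72 h was 0.69 (SE 0.26, adjusted p = 0.052, with 13.7% of all genes called), and from 24 to 72 h it was 0.75 (SE 0.26, adjusted p = 0.58, with 0.0646% called).

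Cell types were read beside this result. Of the 4 microglia markers, 3 rose at 72 h (Csf1r by 0.18, Cx3cr1 by 0.20 and Tmem119 by 0.19), with the summed microglia level at 128.9 to 230.1 TPM in CHI mice and 134.2 to 226.2 TPM in sham mice. Of the 5 astrocyte markers 1 was called, Gfap, which marks reactive astrocytes and rose by 0.69. The median over the 5 was -0.004, with 2 of them above 0. Col1a1, one of 4 genes of meningeal fibroblasts, rose by 0.62. Of the 4 markers of peripheral sensory neurons, 2 passed the filter and 0 changed at 72 h in edgeR's test (summed level 0.24 to 4.63 TPM in CHI mice and 0.67 to 3.86 TPM in sham mice). Their part in the Atf3 result was not tested. Neutrophil markers did not pass the filter at any time point.

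Atf4, the central transcription factor of the response, whose mRNA level does not tell how much of it is translated, was lower after CHI at 9 and 24 h. In C57BL/6J at 24 h its normalized counts were 1831 to 2265 (median 1997) in the CHI mice and 1983, 2043, 2155, 2487, 2612 and 2889 in the sham mice. At 9 h they were 1394 to 2332 (median 1906) against 1817, 1961, 2070, 2348, 2467 and 2778. The highest sham mice of both time points thus exceeded every CHI mouse, while the lower ones lay among them. Over the 4 strains the log2 fold change was -0.15 at 9 h (SE 0.05, adjusted p = 0.025), -0.15 at 24 h (SE 0.04, adjusted p = 0.028) and 0.02 at 72 h (SE 0.04, adjusted p = 0.97). At 9 h all 4 choroid plexus and 3 of 4 microglia markers fell as well over the 4 strains. In IL-1R1 nRestore, however, all 4 choroid plexus markers were above 0. The part of these markers in the Atf4 and Sesn2 results at 9 h was not tested.

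The decrease was found in 2 of the 4 strains by size. C57BL/6J gave -0.23 at 9 h and -0.26 at 24 h (adjusted p = 0.062), and IL-1R1 eRestore gave -0.21 and -0.28. The other 2 strains lay between -0.06 and -0.02 at every time point. In IL-1R1 nRestore at 72 h, however, 5 of 6 CHI mice were below all 5 sham mice. The remaining CHI mouse was above them all, at 2174.34 normalized counts against 1162 to 1339 in the other CHI mice. The differences between strains did not pass the test, as said below. Without C57BL/6J the values over the other strains were -0.12 at 9 h (adjusted p = 0.23) and -0.10 at 24 h (adjusted p = 0.37), and without IL-1R1 eRestore they were -0.14 (0.11) and -0.12 (0.16), so that both calls rested on both of these strains. At 24 h the call was also lost without sex and age as covariates (-0.12, adjusted p = 0.059).

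Atf5, another stress-induced factor of the same family that is controlled by translation like Atf4, gave values of the same sign at the earlier time points without passing the test. Over the 4 strains it was -0.10 at 9 h (SE 0.05, adjusted p = 0.18), -0.12 at 24 h (SE 0.05, adjusted p = 0.25) and 0.09 at 72 h. Its lowest value within a strain was -0.36 (IL-1R1 eRestore at 24 h), where the CHI mice ranged from 195.4 to 303.4 (median 280.4) and the sham mice were at 243.7, 276.8, 282.1, 287.6 and 352.9.

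Sesn2, which encodes sestrin 2, a leucine sensor that restrains growth signalling, was higher after CHI at 9 h. Its log2 fold change over the 4 strains was 0.14 (SE 0.05, adjusted p = 0.018), and the single strains gave 0.15, 0.15, 0.12 and 0.24 with C57BL/6J first, followed by gKO, eRestore and nRestore. In IL-1R1 gKO the CHI mice ranged from 223.4 to 365.6 (median 284.1) and the sham mice were at 199.1, 250.8, 255.9, 264.4, 278.3 and 281.3, with 7 of 13 CHI mice above all sham mice. In IL-1R1 nRestore 5 of 6 CHI mice were above all 4 sham mice and the other was below them all. In C57BL/6J 4 of 15 CHI mice and in IL-1R1 eRestore 4 of 12 were above all sham mice. The call was lost without C57BL/6J (0.13, adjusted p = 0.14) and without IL-1R1 eRestore (0.14, adjusted p = 0.051). At 24 and 72 h the values were 0.02 and 0.07.

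Ddit3 encodes CHOP, the factor tied to cell death under long stress, and Ppp1r15a encodes GADD34, the phosphatase subunit that restores translation. Neither passed the test. Ddit3 gave 0.12 at 9 h (SE 0.06, adjusted p = 0.15), -0.02 at 24 h and 0.10 at 72 h (SE 0.04, adjusted p = 0.57). Ppp1r15a gave 0.12 at 9 h (SE 0.06, adjusted p = 0.11), -0.02 at 24 h and 0.12 at 72 h (SE 0.04, adjusted p = 0.32). In C57BL/6J at 72 h, 10 of 14 CHI mice were above all sham mice for Ppp1r15a (211.8 to 284.7, median 253.2, against 204.6, 207.8, 216.0, 221.0, 227.5 and 242.1). For Ddit3 8 of 14 were (344.5 to 593.9, median 460.9, against 371.2, 372.0, 391.9, 400.0, 405.8 and 449.5). Neither gene passed edgeR's test in C57BL/6J at 72 h. Ppp1r15a had 4 of 12 such CHI mice in IL-1R1 gKO and 5 of 12 in IL-1R1 eRestore at 72 h. It had 0 of 6 in IL-1R1 nRestore, and Ddit3 had 1 in each of these strains. Ddit3 passed at 9 h with the experiment in place of age (0.14, adjusted p = 0.019) and with strain by experiment (0.13, adjusted p = 0.022).

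The metabolic targets of ATF4 moved little. Asns, which makes asparagine, gave 0.07, 0.03 and 0.05 over the 4 strains at 9, 24 and 72 h, with standard errors of 0.06, 0.03 and 0.04. Chac1, which breaks down glutathione, gave 0.08, -0.06 and 0.09 (SE 0.06, 0.07 and 0.07). In C57BL/6J at 24 h, 11 of 14 CHI mice were below all 6 sham mice for Chac1 (65.9 to 126.5, median 99.7, against 109.1, 110.4, 112.9, 124.9, 131.8 and 132.0), a log2 fold change of -0.33 that did not pass the test (adjusted p = 0.28). For Asns 8 of 14 were, at a log2 fold change of -0.09 (adjusted p = 0.51). Trib3, a pseudokinase that CHOP and ATF4 switch on, gave -0.03, 0.30 and 0.35 with standard errors of 0.22, 0.21 and 0.20, and changes of this size were not detectable at its counts.

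**Figure D3:**
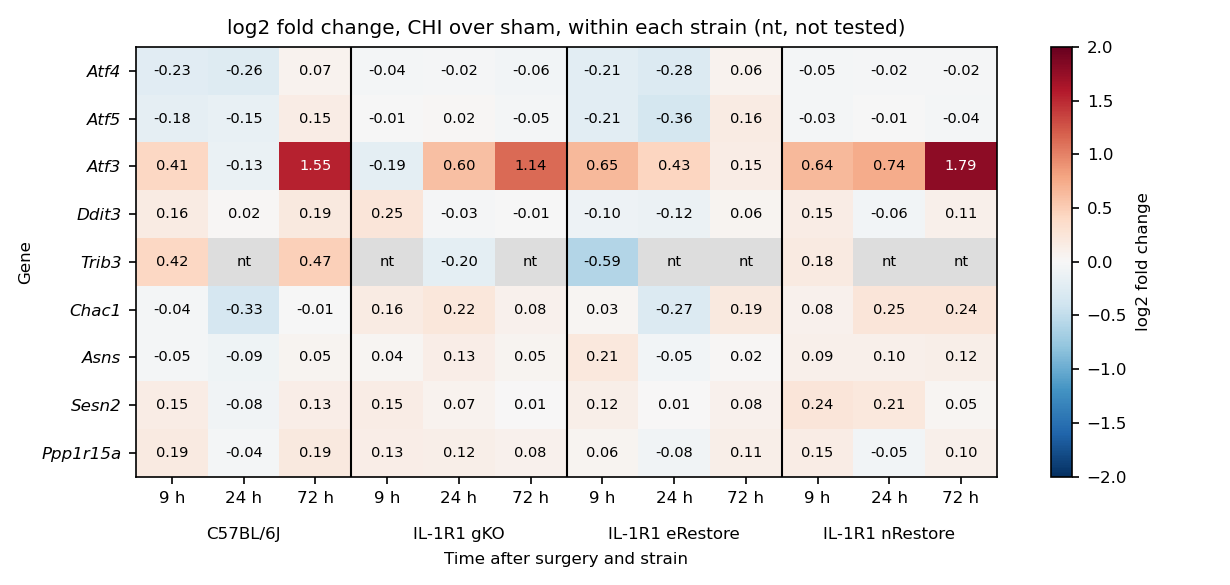
Log2 fold change of CHI over sham for each of the 9 genes (rows) in each strain and time point (columns), red for higher and blue for lower after CHI, with nt where a gene did not pass the filter on low counts. None of the values passed the test in edgeR, and the largest are those of Atf3 at 72 h, with 1.55 in C57BL/6J and 1.79 in IL-1R1 nRestore.

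The CHI effect was compared between strains, sexes and time points in the same fits. The 9 contrasts of an IL-1R1 strain with C57BL/6J share the C57BL/6J mice. For the members 0 of 81 differences passed edgeR's test, and 6 had an unadjusted p under 0.05. Over all genes 0%, 0.0107% and 0.00534% were called at 9 h for IL-1R1 gKO, eRestore and nRestore, 0.00541%, 0.0108% and 0% at 24 h, and 0%, 0% and 0.00543% at 72 h. The lowest value was Atf3 at 72 h in IL-1R1 eRestore, where the effect minus that in C57BL/6J was -1.40 (SE 0.50, unadjusted p = 0.0066, adjusted p = 1.0). Without the sham mouse at 51.3, left out after its value was seen, it was -0.67. The CHI effect on Chac1 at 24 h was higher than in C57BL/6J by 0.49 in IL-1R1 gKO (adjusted p = 0.30) and by 0.57 in IL-1R1 nRestore (adjusted p = 0.89).

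Between the sexes 0 of 27 differences passed and 3 had an unadjusted p under 0.05, with 0%, 0% and 0.00543% of all genes called at 9, 24 and 72 h. The effect on Atf3 in males minus that in females was -0.83, -0.61 and -0.38 at the 3 time points (adjusted p of 0.92 or more). At 72 h it turned to 0.068 with gene-length offsets and to 0.028 without the sham mouse at 51.3, left out after its value was seen. In C57BL/6J at 72 h the 6 female CHI mice were at 37.7, 41.3, 50.9, 62.0, 62.4 and 63.6 normalized counts of Atf3, while the 8 males were at 12.9, 23.7, 26.6, 27.4, 28.2, 29.4, 29.4 and 36.2. The sexes thus did not overlap among these CHI mice, in a strain picked after its values were seen. The share of all genes whose values set the sexes apart in this group was not counted. The sexes did overlap in IL-1R1 gKO (females 11.03 to 52.55, males 8.16 to 40.80) and in IL-1R1 eRestore (females 15.79 to 30.18, males 9.08 to 28.22). The female sham mice of C57BL/6J were at 7.5, 8.3 and 32.5 and the males at 6.6, 11.4 and 12.3. Between time points 0 of 27 differences passed and 10 had an unadjusted p under 0.05, with 11.3% of all genes called between 9 and 24 h. By DESeq2 1 of the 27 passed, Atf3 from 9 to 72 h. In the 10 of these 30 comparisons with 0 genes called by edgeR, 376 to 1494 genes had an unadjusted p under 0.05, and DESeq2 called 0 to 55.

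The level of several of the genes differed between the strains, in sham and in CHI mice alike. This comparison was chosen after the values were seen. In the sham mice (18 of C57BL/6J, and 18, 17 and 14 of the strains gKO, eRestore and nRestore), Atf4 was at 120.99 ± 21.85 TPM (SD) in C57BL/6J and at 83.03 ± 10.41, 88.02 ± 13.19 and 83.75 ± 7.20 TPM in the other 3 strains in that order. In normalized counts of Atf4, the C57BL/6J and IL-1R1 gKO sham mice ran from 1817 to 2778 and from 1178 to 1808 at 9 h and from 1983 to 2889 and from 1405 to 1596 at 24 h. At 72 h they ran from 1272 to 2263 and from 1262 to 1500. C57BL/6J and IL-1R1 gKO were thus apart at 9 and 24 h and overlapped at 72 h. In IL-1R1 eRestore a 24 h sham mouse was at 2197.56, within the C57BL/6J range. The share of all genes that lie apart in this way was not counted. The genetic background and colony of the IL-1R1 strains are not given in the sources used here, so they cannot be told apart from the IL-1R1 genotype. Each IL-1R1 strain was tested against C57BL/6J with time, sex and age as covariates. These contrasts again share the C57BL/6J mice.

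In sham mice 4.82%, 4.65% and 13.5% of all genes were called for IL-1R1 gKO, eRestore and nRestore, and 5, 4 and 5 of the 9 members, all lower than in C57BL/6J. With the experiment in place of age the shares of all genes were 4.95%, 5.67% and 2.31%. Within single time points, where fewer mice were tested, 0 to 4 members were called per strain. Fewer of all genes were called there too (at 72 h alone 31, 47 and 47 of 17321). With all time points together, the log2 difference of Atf4 from C57BL/6J was -0.58, -0.51 and -0.55 in that order (adjusted p = 4.8e-11, 2.8e-09 and 4.0e-09). That of Chac1 was -0.61, -0.55 and -0.59, that of Asns -0.42, -0.40 and -0.48, and that of Atf5 -0.43, -0.42 and -0.42, each past the test in all 3 strains. Sesn2 gave -0.28 in IL-1R1 gKO (adjusted p = 0.0042), -0.40 in IL-1R1 nRestore (adjusted p = 0.0001) and -0.17 in IL-1R1 eRestore, where it did not pass (adjusted p = 0.17). The values of Ddit3 and Ppp1r15a lay between -0.09 and 0.11 and did not pass. Atf3 gave -0.29, -0.43 and -0.75 without passing, and Trib3 did not pass either.

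In the CHI mice, which are other animals, Atf4, Atf5, Chac1, Asns and Sesn2 were also lower than in C57BL/6J in all 3 strains. There 23.3%, 27.8% and 25.5% of all genes were called, and the log2 difference of Atf4 from C57BL/6J was -0.45, -0.47 and -0.46. Atf5 gave -0.35, -0.40 and -0.36, Chac1 gave -0.36, -0.40 and -0.26, Asns gave -0.31, -0.28 and -0.35, and Sesn2 gave -0.29, -0.21 and -0.38, all past the test. Atf3 passed in IL-1R1 eRestore (-0.63, adjusted p = 0.0002), Ppp1r15a in IL-1R1 nRestore (-0.17, adjusted p = 0.0062) and Trib3 in IL-1R1 gKO (-0.47, adjusted p = 0.045). The values of these 5 genes (Atf4, Atf5, Chac1, Asns and Sesn2) stayed below 0 in all 3 strains under each of 11 alternatives. With the experiment in place of age, all kept their call in sham mice except Sesn2 in IL-1R1 nRestore (-0.19, adjusted p = 0.24). That fit compared strains within experiments only where an experiment also held C57BL/6J mice. All 9 h sham mice of IL-1R1 nRestore, and some of IL-1R1 gKO, came from an experiment without C57BL/6J mice. Of the 4 genes called in all 3 strains, Chac1 and Asns have the composite site in their promoter windows and Atf4 and Atf5 do not. Atf3 and Trib3 also have it and did not pass in the sham mice of all time points together.

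**Figure D4:**
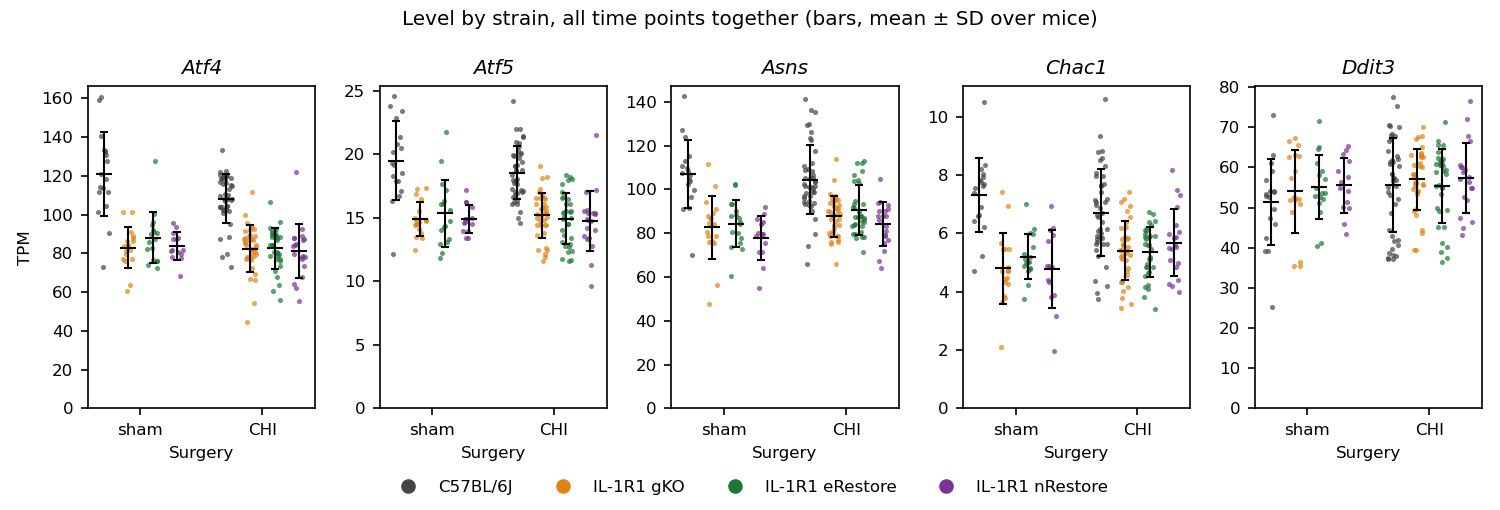
TPM of Atf4, Atf5, Asns, Chac1 and Ddit3 in every mouse, by surgery and strain with all time points together; bars are the mean and SD over mice. Atf4 in sham mice averaged 120.99 TPM in C57BL/6J and 83.03, 88.02 and 83.75 TPM in the IL-1R1 strains, while Ddit3 averaged 51.3 TPM in C57BL/6J and 54.0, 55.2 and 55.5 TPM in the others.

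Other genes of the pathway were taken from lists set by their known roles, and those named for this strain comparison were picked after their values were seen, among genes called in all 3 strains. Of all genes 2.67%, 2.58% and 7.51% were lower in IL-1R1 gKO, eRestore and nRestore sham mice. With the experiment in place of age these shares were 2.86%, 3.35% and 1.28%. The list counts that follow are from the fit with age and were not made with the experiment in its place. Of 14 genes of serine, glycine and one-carbon synthesis 2, 1 and 3 were lower, of 11 amino acid transporters 2, 2 and 8 (and 1 higher in eRestore), and of 17 tested other targets of ATF4 and CHOP 2, 2 and 6. In sham mice, the mitochondrial folate enzyme Mthfd2 stood at a log2 difference of -0.64, -0.49 and -0.70 from C57BL/6J in IL-1R1 gKO, eRestore and nRestore. Also lower were the amino acid transporters Slc7a3 (-0.55, -0.54 and -0.51) and Slc7a5 (-0.37, -0.30 and -0.51), Stc2 (-0.79, -0.60 and -0.64), which encodes a secreted glycoprotein, and the p53 and ATF4 target Pmaip1 (-0.56, -0.49 and -0.70). Of 19 aminoacyl-tRNA synthetases, which charge tRNAs with amino acids, 8, 7 and 8 were lower and 1 was higher in each strain. Gars gave -0.25, -0.23 and -0.24, and Hars was the one that was higher. Of 18 genes of the ATF6 and XBP1 arms of the unfolded protein response, 0, 0 and 3 were lower, and of the 4 eIF2 kinases 0, 0 and 1 was. Of 7 tested bZIP partners of ATF4 1, 1 and 3 were lower. Among them Cebpg, a C/EBP partner of ATF4, gave -0.16, -0.19 and -0.13, past the test in all 3 strains. Of 11 subunits of eIF2, of its exchange factor and of its phosphatases 1, 0 and 3 were lower. Of 13 tested axon injury genes 0 were lower in each strain, and 1, 1 and 0 were higher.

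The same 9 lists were read for the CHI effect. At 9 h 38 of 114 tested list genes were called in the 4 strains together (33.3%, against 23.9% of all genes), 26 higher and 12 lower, against 12.0% and 11.9% of all genes in these directions. In C57BL/6J alone 20 of 113 were called (17.7%, against 14.1%), 10 in each direction, against 7.05% of all genes higher and 7.00% lower, and in IL-1R1 eRestore 12 of 113 (10.6%, against 7.34%), 9 higher and 3 lower. At 24 h 6 of 114 were called (5.26%, against 1.48%), with 0 to 2 left without covariates, without a filter, with the experiment in place of age or without C57BL/6J, IL-1R1 gKO or IL-1R1 eRestore, and at 72 h 1 of 114 (0.877%, against 0.706%).

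Of the eIF2 kinases 1 of 4 rose at 9 h, the endoplasmic reticulum sensor Eif2ak3 (PERK), by 0.16. Of 11 subunits of eIF2, of its exchange factor and of its phosphatases, 5 rose. Of 7 tested bZIP partners of ATF4, 3 rose, the C/EBP factors Cebpb (0.31), Cebpa (0.37) and Cebpd (0.55). Of 14 genes of serine, glycine and one-carbon synthesis, 3 rose, Mthfd1l (0.28), Shmt1 (0.29) and Pycr1 (0.27). The median over this list was 0.07, against -0.003 over all genes.

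Of 11 amino acid transporters 3 rose and 2 fell. Slc3a2 (0.21) and Slc7a5 (0.22), both chains of the large neutral amino acid transporter, rose together, while the cystine transporter Slc7a11 fell by 0.49 and the glycine transporter Slc6a9 by 0.21. Of 19 tRNA synthetases 4 rose and 1, Farsb, fell by 0.17. Among 17 tested other targets of ATF4 and CHOP, 4 rose, with the cell cycle inhibitor Cdkn1a at 1.14 (adjusted p = 9.4e-07) and Pmaip1 at 0.66, and 1 fell. Cdkn1a and Pmaip1 are also targets of p53. In C57BL/6J alone Cdkn1a stood at 1.94, Pmaip1 at 1.23 and Ddit4, an inhibitor of growth signalling, at 0.52, all past the test.

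Of 18 genes of the other arms of the unfolded protein response 11 did not pass the test (list median -0.04). The other 7 were called, of which 2 rose, the sensor Atf6 (0.26) and Edem1 (0.16), and 5 fell, among them the disulfide isomerases Pdia4 (by 0.21) and Pdia6 (by 0.19). At 24 h 3 of them fell, Xbp1 (by 0.17), Calr (by 0.16) and Pdia6 (by 0.17). Of 13 tested axon injury genes 1 rose at 9 h, Tnfrsf12a (0.44), and 3 fell, Jun (by 0.24), Sox11 (by 0.24) and Adcyap1 (by 0.47). At 72 h Tnfrsf12a, a receptor of the TNF family, was the one list gene called (0.35, adjusted p = 0.028), and its call was lost without C57BL/6J, IL-1R1 gKO or IL-1R1 nRestore (0.31, 0.34 and 0.31, adjusted p = 0.32, 0.24 and 0.24). Cell type markers also moved at 9 h. All 4 choroid plexus markers fell (Ttr fell by 2.77), as did 3 of 4 microglia markers (P2ry12 fell by 0.62, Tmem119 by 0.25 and Csf1r by 0.15). In each single strain at 9 h, 0 of the choroid plexus markers were called. In IL-1R1 nRestore all 4 of them were above 0, with a median of 1.01. Of 4 endothelial markers 2 rose (Cldn5 by 0.37, Pecam1 by 0.24) and 2 fell. Of 5 astrocyte markers 1 was called, Gfap, which rose by 0.79, and the median over the 5 was 0.0016, with 3 of them above 0. Scn10a, one of 2 tested markers of peripheral sensory neurons, rose by 1.40. Their part in these changes was not tested.

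**Figure D5:**
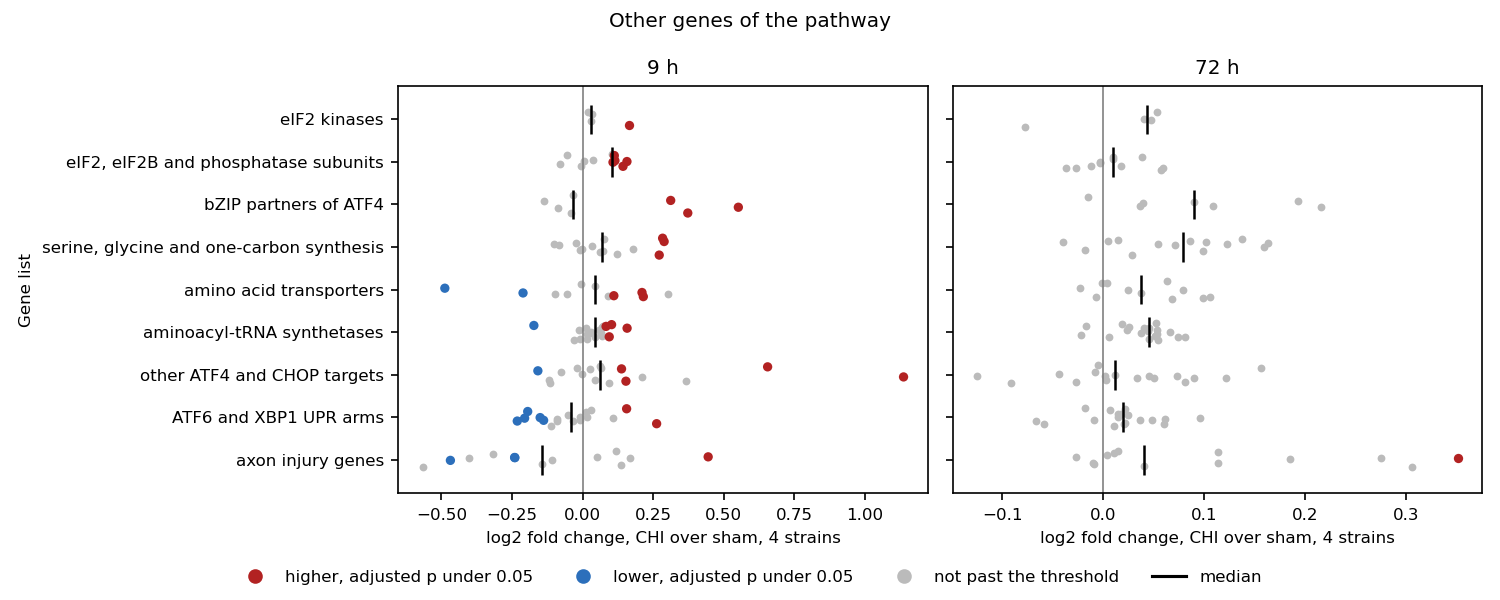
Log2 fold change of CHI over sham in the 4 strains together for the genes of 9 lists around the integrated stress response, at 9 h (left) and 72 h (right, with a narrower axis), UPR being the unfolded protein response. Red points were higher and blue points lower with an adjusted p under 0.05, and black bars are list medians. At 9 h 26 genes were higher and 12 lower, with Cdkn1a at 1.14, and at 72 h only Tnfrsf12a passed.

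The covariation of the 9 genes was read from what was left of each mouse's log2 CPM, the count scaled to library size, after the mean of its strain, surgery and time group, its experiment and its sex were taken out. Of 36 pairs of members 27 had a Pearson r above 0, with a median r of 0.11. In a permutation test over the 200 mice 13 pairs had an adjusted p under 0.05, all with r above 0, and 11 of these also by Spearman's rho. The lowest r among the 13 was 0.171, a value that 16.7% of all pairs of 16059 genes reached, against 36.1% of the member pairs. The median r over all pairs was -0.001. The highest were Chac1 with Asns (r = 0.40, rho = 0.30, adjusted p = 0.00018 and 0.00036 by permutation, r = 0.32 without the 2 mice farthest from the median), Atf4 with Ppp1r15a (r = 0.34, rho = 0.30, adjusted p = 0.00018 and 0.00036 by permutation, r = 0.30 without 2 mice) and Atf4 with Atf5 (r = 0.31, rho = 0.35, adjusted p = 0.0006 and 0.00036 by permutation, r = 0.27 without 2 mice). Both genes of a pair were read from the same library, so they share its depth and tissue. Among 16059 genes, those most like Asns were the tRNA synthetase Gars (r = 0.77) and Ndrg3 (r = 0.77), and Gars was also most like Chac1 (r = 0.48). Ppp1r15a was most like the immediate early genes Npas4 (r = 0.46), Ier2 (r = 0.44) and Btg2 (r = 0.38). Atf3 was most like Apold1 (r = 0.33), Ccl9 (r = 0.31) and Tnfrsf12a (r = 0.30), Atf4 like Gls2 (r = 0.50), Atf5 like Fth1 (r = 0.56), Ddit3 like Selenow (r = 0.49), Sesn2 like Susd6 (r = 0.48) and Trib3 like Gpsm3 (r = 0.32).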

How the data were processed

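Bulk brain RNA of 200 mice was sequenced, and groups were taken from the sample labels. The authors processed reads with nf-core/rnaseq, with STAR and Salmon on GRCm39, and deposited estimated counts per gene (reads assigned by Salmon, not normalized for depth or length) and TPM values (scaled within each library for transcript length and depth). The annotation release is not given in the sources used here. All columns of both tables were used.

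Estimated counts were rounded and tested with edgeR 4.0.16 in R 4.3.3 (TMM factors, robust quasi-likelihood F test), with genes kept that reached 10 counts in n mice, n being the size of the smaller group. Sex and age were covariates, p-values were adjusted by Benjamini–Hochberg over all genes tested, and genes with an adjusted p under 0.05 were called. Standard errors include the spread between mice. Depth limits the precision most for the low counts of Atf3 and Trib3. The sources used here describe no molecular identifiers, so reads may not be independent molecules. Normalized counts are counts scaled by TMM factors. DESeq2 1.42.0, the study's test, was an alternative with and without gene-length offsets, as were no filter and a stricter filter on the number of mice, other covariates, RLE factors, single experiments, strains left out, and each sham mouse and each CHI mouse of groups of 6 left out in turn (79 fits). Correlations used residual log2 CPM and 100000 permutations. The scripts were tested on simulated data.

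All 9 members are named in every comparison. Of each pathway list, up to 3 higher and 3 lower called genes with the smallest p were named, in C57BL/6J at 9 h and over the 4 strains, and for each member the 5 genes most like it, of which the first 1 to 3 are given. The members, lists and tests were chosen with earlier results of these data known. The comparison of strain levels was added after the data were seen. Promoter sequences are from the RefSeq promoter table built on GRCm38.p6, and the printed stretches were located in GRCm39 by exact match. P-values of differences set them against the spread between mice, and those of correlations come from permuting the mice.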

Additional observations from a re-analysis of the deposited data

Results flagged for a closer look

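Single mice stood apart from the rest of their group in 13 cases, over the groups of 4 to 10 mice and the normalized counts of the 9 genes, as judged by Dixon's test at the 95% level, where chance gives about 7.2. Among sham mice, Atf3 was highest in one mouse of IL-1R1 eRestore at 72 h (51.33), of C57BL/6J at 72 h (32.47) and of IL-1R1 gKO at 9 h (39.13). The log2 fold change of Atf3 at 72 h over the 4 strains was 1.10 with all mice, 1.34 without the first of these mice and 1.17 without the second. These omissions were chosen after the values were seen, and leaving out a high sham value raises this fold change.

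In IL-1R1 nRestore at 72 h the same CHI mouse was the highest in Atf4 (2174.34), Atf5 (404.42) and Chac1 (136.32), while its Atf3 (14.8) was the lowest of the group. One sham mouse of IL-1R1 eRestore at 9 h was the highest in both Atf5 (413.34) and Ppp1r15a (370.04), and one at 24 h was the highest in Atf4 (2197.56). Asns was lowest in one sham mouse of IL-1R1 gKO at 24 h (1073.63) and one at 72 h (1236.54) and in one CHI mouse of IL-1R1 nRestore at 24 h (1402.83). Sesn2 was lowest in one sham mouse of IL-1R1 gKO at 9 h (199.15).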

How the results depend on the processing

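No paired analysis was possible because the labels give no replicate numbers. The fit with the experiment in place of age could not be made in IL-1R1 nRestore at 9 h, which held 1 experiment. The count of members called went from 0 to 1 in C57BL/6J at 9 h (Atf4) on leaving out single sham mice (range 0 to 1), at 24 h (Atf4) and 72 h (Atf3) with either DESeq2 fit, no filter, the experiment in place of age or single sham mice left out (range 0 to 1), and at 72 h also with one fit of the strain. It also became 1 in IL-1R1 nRestore at 72 h with DESeq2 size factors, and for the change from 9 to 72 h (Atf3) with either DESeq2 fit, the stricter filter or the experiment. Over the 4 strains it went from 2 at 9 h and 1 at 24 h to 0 without C57BL/6J or IL-1R1 eRestore, at 24 h also without covariates, and from 1 at 72 h to 0 without C57BL/6J. In sham mice the members called against C57BL/6J at 9, 24 or 72 h alone were 1, 4 and 1 of 9 in IL-1R1 gKO, 2, 1 and 2 in IL-1R1 eRestore and 0, 2 and 0 in IL-1R1 nRestore with fewer mice in each test. Each of these fits also called fewer of all genes than the fit with all time points, at 72 h alone 31, 47 and 47 of 17321. Trib3 did not pass the stricter filter in any single strain. Atf3 in these single time points was 0.0895 in IL-1R1 gKO at 9 h and 0.45 in IL-1R1 eRestore at 72 h.

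Values that turned direction did not pass the threshold in the turned direction. Over the 4 strains, these were Trib3 at 9 h (0.16 without IL-1R1 eRestore, 0.0525 without IL-1R1 nRestore) and, at 24 h, Ddit3 (0.004 without IL-1R1 eRestore), Chac1 (0.075 without C57BL/6J), Asns (-0.014 without IL-1R1 gKO, -0.0047 without IL-1R1 nRestore) and Sesn2 (-0.0202 with the experiment, -0.016 with strain by experiment). With gene-length offsets Atf3 was -0.021 in C57BL/6J at 9 h, 0.0003 at 24 h, -0.11 in IL-1R1 eRestore at 72 h and in IL-1R1 nRestore at 9 h, and its strain differences were -0.063 (IL-1R1 nRestore, 9 h) and 0.0043 (IL-1R1 gKO, 72 h). The sex difference at 72 h was then 0.068 and the change from 9 to 24 h 0.32 (0.054 without covariates). In single experiments Atf3 was 0.15 in C57BL/6J at 24 h, 0.77 in IL-1R1 gKO at 9 h and -0.0645 in IL-1R1 eRestore at 72 h. Jun in C57BL/6J at 9 h, called at -0.27 with all mice, was 0.015 in 1 experiment. With single sham mice left out, Atf3 ranged from -0.33 to 0.088 in C57BL/6J at 24 h, from -0.50 to 0.28 in IL-1R1 gKO at 9 h and from -0.0749 to 0.80 in IL-1R1 eRestore at 72 h. The difference of IL-1R1 nRestore from C57BL/6J at 72 h was -0.021 with the experiment and -0.15 to 0.24 with single sham mice left out, and that of the sexes 0.028 to -0.59. These last omissions were chosen after seeing the data. The cause was not tested.

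List genes called went from 20 to 3 in C57BL/6J at 9 h in 1 experiment and from 38 to 19 over the 4 strains without C57BL/6J. At 24 h the 6 became 2 (experiment; no filter), 1 (no covariates; C57BL/6J or IL-1R1 eRestore left out), 0 (IL-1R1 gKO left out) or 10 (IL-1R1 nRestore left out). At 72 h the 1 became 2 (gene-length offsets) or 0 (any of C57BL/6J, IL-1R1 gKO or nRestore left out). Over all genes, the count ranged over the alternatives from 24 to 333 in C57BL/6J at 24 h, 21 to 392 in IL-1R1 gKO at 9 h, 736 to 1991 in IL-1R1 eRestore at 9 h, 97 to 806 in IL-1R1 nRestore at 9 h and up to 471 over the 4 strains at 24 h, where the lowest was 0.952% of genes against 1.48%. It was 0 to 41 in C57BL/6J at 72 h, 0% to 0.743% of genes in IL-1R1 gKO at 24 h, 0 to 93 in IL-1R1 eRestore at 24 h, 8 to 41 from 24 to 72 h and 0 to 26 in the others that moved by over 1.5 times, and for sham IL-1R1 nRestore it was 399 with the experiment against 2331.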
